A study of Drosophila melanogaster with 18 samples.

Results

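The genes of the cytoplasmic ribosomal proteins of Drosophila melanogaster were followed in larvae with mutations in heterochromatin genes. A member was any gene whose symbol begins with RpL (large subunit) or RpS (small subunit), the mitochondrial mRp genes left out. A member also needed a probe set that names it alone and a log2 signal of 6 or more on at least 3 of 18 arrays. Where several probe sets named a gene, the one with the highest mean was used. Of 92 such symbols in the reference table, 41 had a one-gene probe set and 37 passed the filter (24 RpL and 13 RpS), among 8211 genes tested in all. The other 51 symbols, among them RpS3A of chromosome 4, were not analysed here.

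Each array held RNA of 200 pooled whole first-instar larvae, taken about 48 h after egg laying from crosses kept at 25 °C. Wildtype had 6 arrays, with the letters A to F, and each mutant genotype had 3, A to C. The HP1a mutants were HP1a04/HP1a05 and the double mutants HP1a04 PofD119/HP1a05 PofD119. The other genotypes were Setdb110.1/Setdb110.1 and Su(var)3-9evo over Su(var)3-906. HP1a binds methylated histone H3 in heterochromatin, Setdb1 and Su(var)3-9 methylate that histone, and Pof coats chromosome 4. The labels do not name the wildtype strain or say whether any protein was absent from the larvae. In whole larvae, fewer cells of a type and less RNA per cell cannot be told apart.

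Ribosomes are built from a large and a small subunit, each an assembly of ribosomal RNA and many small proteins that are needed in nearly equal numbers. In Drosophila, losing 1 copy of many of these genes gives the Minute phenotype of slow growth and short bristles. Besides the genes used in nearly all cells, the fly genome carries paralogues, and several of these are known from the gonads. Genes with names ending in -like mostly encode relatives of ribosomal proteins. In yeast, the relatives of RpL24-like, RpL7-like and RpLP0-like act in ribosome assembly.

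The label of short, highly expressed genes held for most of the tested members. Their median gene length was 1119 bp, from 422 bp in RpL37-2 to 3280 bp in RpL3, against 2720 bp over the 8193 tested genes with a length. In all, 32 of the 37 (86.5%) were at most 2000 bp long, against 37.5% of tested genes. They lay on 2L (8), 2R (10), 3L (5), 3R (11) and X (3).

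The members fell into a large bright group and a small dim one. In 29 members (18 RpL and 11 RpS) the log2 signal averaged 13 or more over the arrays, a boundary chosen after the values were seen. Their wildtype means ran from 13.45 (RpL17) to 14.30 (RpL41), with a median of 13.93, where the median tested gene stood at 8.26. The 8 dimmer members had wildtype means of 12.45 (RpL34a), 10.94 (RpL24-like), 10.67 (RpL7-like), 9.57 (RpLP0-like), 9.57 (RpS5b), 7.28 (RpL22-like), 6.79 (RpL37-2) and 6.48 (RpS19b). Signals of different probe sets also depend on their probes, so these values describe the array and do not rank transcript numbers.

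Just inside the filter lay RpS19b, with 6 or more on 17 of the 18 arrays. Just outside lay RpS10a, with a mean of 5.67 and 1 such array. RpL10Aa, RpS28a and RpS28-like never reached 6. RpL10Aa averaged 4.40 beside 13.89 for its paralogue RpL10Ab. RpS28a and RpS28-like had wildtype medians of 5.77 and 5.04, beside 14.00 for RpS28b, and RpL37-2 had 6.77 beside 13.69 for RpL37-1. In each of these sets 1 probe set was bright and the others were near or below the filter.

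**Figure D1:**
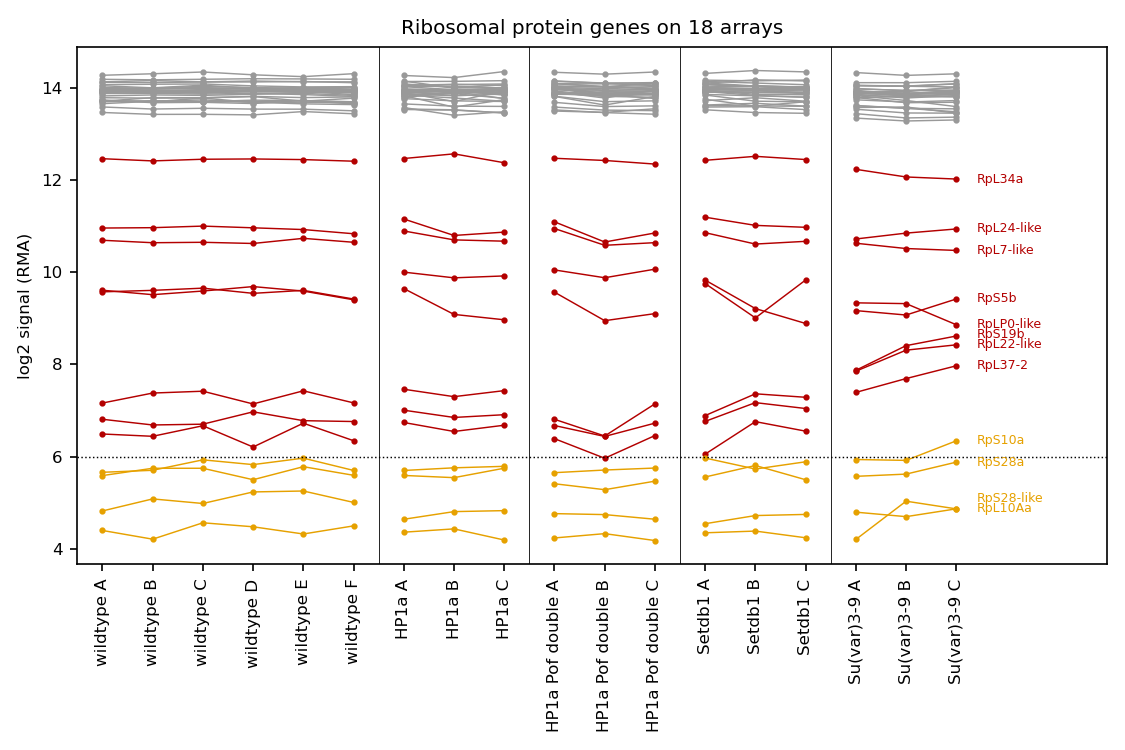
Log2 RMA signal (y axis) of the 41 ribosomal protein genes with a one-gene probe set on each of the 18 arrays (x axis, by genotype). Grey points are the 29 members averaging 13 or more, red points the 8 dimmer tested members, and yellow points the 4 genes that missed the filter, whose signal threshold of 6 is dotted. Lines only join the points of a gene. The grey group stays flat, while RpS19b, RpL22-like and RpL37-2 stand higher on the 3 Su(var)3-9 arrays.

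The bright members were among the steadiest measurements on these arrays. Their SD within a group had a median of 0.0349 log2 units (0.0149 to 0.0769 over the 29). It was 0.0739 for the 81 other tested genes averaging 13 or more, 0.154 for all tested genes and 0.194 for the 8 dim members. Those 81 genes were not matched to the members in brightness, with a wildtype mean of 13.42 against 13.90. The distance from the lowest to the highest of the 5 group means had a median of 0.117. It ran from 0.0494 in RpS27A, which is made as a fusion with ubiquitin, to 0.289 in RpS29. That distance was 0.296 for the 81 other bright genes and 0.607 for all tested genes.

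The mean signal of the 29 bright members moved little between groups. It was 13.90 ± 0.01 (SD, n = 6) in wildtype, 13.89 ± 0.02 (n = 3) in HP1a mutants, 13.90 ± 0.03 (n = 3) for the label HP1a Pof double mutant, 13.92 ± 0.02 for Setdb1 and 13.83 ± 0.02 for Su(var)3-9. All 3 Su(var)3-9 arrays (13.81 to 13.85) lay below the 6 wildtype arrays (13.88 to 13.91). Members uncalled in every comparison with wildtype numbered 17 of the 29 (58.6%), against 16 of the 81 other bright genes (19.8%) and 1029 of all 8211 (12.5%). A gene was called at a limma adjusted p under 0.05 over all tested genes. No test was made of these shares. The bright members lay above the 99th percentile of their arrays (13.09 to 13.19), close to the highest value on each (14.28 to 14.40 on mutant arrays, 14.43 or more in wildtype), and whether changes are compressed there was not tested.

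Several measures of the whole arrays moved with genotype, and their part in the results below was not tested. The 3' control for 18S ribosomal RNA read 12.18 to 12.41 on wildtype arrays and 8.95 to 11.11 on mutant arrays. Control transcripts for actin, GAPDH and eIF-4a, which report on RNA integrity, had 3' signals above their 5' signals by a mean of 1.46 to 1.92 in wildtype, 1.41 to 1.91 in HP1a mutants, 1.43 to 1.54 in the double mutants, 1.16 to 1.33 in Setdb1 and 1.24 to 1.47 in Su(var)3-9 mutants. The median tested gene was 7.89 on Su(var)3-9 array C and 8.10 to 8.29 on the others. The gene for HP1a read 10.13 to 10.27 in wildtype, 9.40 to 9.53 in HP1a mutants and 9.45 to 9.61 in the double mutants, without overlap between wildtype and either. Pof read 8.05 to 8.62 where the label is HP1a Pof double mutant and 7.41 to 7.64 in wildtype. Su(var)3-9 array B, with no Pof allele in its label, read 8.31. The labels do not say how PofD119 acts on the transcript, so these values do not settle the genotype. Every direction from the 3 arrays labelled HP1a Pof double mutant thus refers to the label alone. The Setdb1 and Su(var)3-9 genes were not analysed here.

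In HP1a mutants, 3 of 37 members were higher than in wildtype and 2 lower. Of all tested genes, 23.5% were higher and 35.6% lower. The median change over the members was 0.008 log2 units, against -0.06 over all tested genes. Both falls were in bright members, as were 2 of the 3 rises. Of the 81 other bright genes, 13 were higher and 28 lower.

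RpS29, a small zinc-binding protein of the small subunit, had the largest fall among bright members. Its signal was 13.91, 13.96 and 13.88 on HP1a arrays A, B and C, and 14.12 (lowest), 14.13 (median) and 14.14 (highest) on the wildtype arrays. The groups did not overlap, and the change was -0.21 ± 0.05 (SE; limma adjusted p = 0.0015), a loss of signal of 13.6%. A second bright probe set of RpS29 changed by -0.06, and the mean of its probe sets gave -0.09 (adjusted p = 0.145). RpL27 of the large subunit read 13.58, 13.41 and 13.48, all below the wildtype range of 13.64 to 13.74 (median 13.68), a change of -0.19 ± 0.05 (adjusted p = 0.0062).

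The rises were small or in a dim gene. RpS21, whose mutants overgrow their blood-forming organs in Drosophila, read 14.15, 14.00 and 14.07 against 13.92 to 13.96 (median 13.94) in wildtype, a change of 0.13 ± 0.05 (adjusted p = 0.0266). RpS12 read 14.03, 13.96 and 13.98 against 13.82 to 13.89 (median 13.87), a change of 0.12 ± 0.05 (adjusted p = 0.0295). RpLP0-like, a relative of the stalk protein RpLP0, read 10.00, 9.88 and 9.92 against 9.40 to 9.69 (median 9.59), a change of 0.37 ± 0.15 (adjusted p = 0.0418). Each of these 3 genes stood above every wildtype array on every HP1a array. So did the uncalled members RpL28, RpL36A, RpL37A and RpLP0. Such separation was part of the choice of named genes and adds nothing to the calls.

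None of the 3 rises held with the replicate letter as a block (0.36 in RpLP0-like with adjusted p = 0.104, 0.13 in RpS21 with 0.118 and 0.11 in RpS12 with 0.155). That block left out wildtype arrays D to F. Leaving those arrays out with no block also left the rises uncalled (limma adjusted p of 0.121, 0.119 and 0.148). Without HP1a array A the rises were 0.33 (adjusted p = 0.12), 0.10 (0.146) and 0.10 (0.115), and without array C 0.37 (0.0862), 0.14 (0.0638) and 0.13 (0.0589). RpLP0-like was also uncalled without HP1a array B (0.40) or without any 1 of wildtype arrays A, B, C, E and F (0.33 to 0.38), and RpS12 without wildtype array E (0.12) or F (0.11). With each array centred on its median tested gene, 8 members were higher and 0 lower. RpS29 (-0.14, adjusted p = 0.051) and RpL27 (-0.12, adjusted p = 0.0553) were then not called. Shares of all tested genes on the centred scale are not given, here or beside the centred counts below. Those counts thus cannot be set against a background.

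The arrays labelled HP1a Pof double mutant share the HP1a alleles and the wildtype controls, and 5 members were higher and 4 lower than in wildtype. Over all tested genes 25% were higher and 35.8% lower, and the medians were -0.01 for the members and -0.05 for all genes. RpLP0-like read 10.05, 9.88 and 10.07 (0.43 ± 0.15, limma adjusted p = 0.0182). The other rises were of 0.14 to 0.15, in RpL28, RpS12, RpL3 and RpS21. RpL3, which lies beside the site of peptide bond formation in the ribosome, read 13.88, 13.83 and 13.86 against 13.68 to 13.74 (median 13.71) in wildtype (0.14 ± 0.06, adjusted p = 0.0485). Its 2 dimmer probe sets, with means of 8.30 and 5.68 over the arrays, changed by 1.04 and 2.24 in the double mutants. In HP1a mutants these were 0.89 and 1.98, in Setdb1 mutants 0.61 and 1.49, and in Su(var)3-9 mutants 0.74 and 1.59. The size of the RpL3 change thus depended on the probe set, and the mean of the 3 gave 1.14 in the double mutants (adjusted p = 4.41e-07).

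The falls in the double mutants were of -0.19 in RpS29, -0.18 in RpL27, -0.14 in RpS18 and -0.48 in RpL22-like. RpS29 read 14.00, 13.88 and 13.92, but its second bright probe set changed by 0.00, and the mean of its probe sets gave -0.05 and was not called (adjusted p = 0.462). RpL22-like read 6.81, 6.45 and 7.15, and array C overlapped the wildtype range of 7.14 to 7.43 (median 7.27), with -0.48 ± 0.15 (adjusted p = 0.0112). Without array B the RpL22-like change was -0.31 (adjusted p = 0.109).

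Against the HP1a mutants, 0 members were higher or lower by limma, where 0.244% of tested genes were higher and 0.487% lower. At an unadjusted p under 0.05 there were 2 members, and with array weights 1 member was lower. The largest difference was that of RpL22-like (-0.60 ± 0.17, adjusted p = 0.214), and the bright members differed by -0.04 to 0.07. Centring gave 8 members higher and 1 lower than in wildtype, and RpS29 (-0.11), RpL27 (-0.10) and RpS18 (-0.06) were not called.

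None of the 5 rises was called with wildtype arrays A to C alone. Without double-mutant array A the number called higher was 1 and without array C it was 2, while without array B the number called lower was 1. RpLP0-like was uncalled without array A (0.41) or C (0.40), RpS21 without A (0.12) or C (0.12), RpS12 without A (0.14) and RpL28 without B (0.14). Among the falls, RpS18 was uncalled without array B (-0.13) or C (-0.12) and RpL27 without B (-0.16). RpL3 lost its call without any single array of either group (0.13 to 0.16).

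In Setdb1 mutants, 0 of the 37 members were called in either direction by limma, while 17.3% of tested genes were higher and 35.2% lower. The median member change was 0.02 against -0.11 over all genes. At an unadjusted p under 0.05 there was 1 member, the mean of probe sets gave 3 higher, and a trended robust variance gave 4 higher. Of the 81 other bright genes, 16 were higher and 16 lower. Changes of the bright members ran from -0.08 to 0.13, with SEs of 0.0442 to 0.0653. RpL39, a very small protein of the peptide exit tunnel, read 13.91, 13.90 and 13.88 against 13.71 to 13.81 (median 13.78). RpL41 read 14.32, 14.38 and 14.35 against 14.25 to 14.35 (median 14.30), so the groups overlapped. Centring the arrays gave 12 members higher and 0 lower, the median tested gene being 0.11 lower in these mutants. Without Setdb1 array A, 1 member was called higher and 1 lower.

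In Su(var)3-9 mutants, 3 members rose and 9 fell against wildtype. Of all tested genes 16.3% rose and 47.6% fell, and the medians were -0.07 for the members and -0.22 for all genes. The 3 rises were all in dim paralogues, and 7 of the 9 falls were in bright members. The falls depended on the scaling. With each array centred on its median tested gene, 22 members were higher and 0 lower, and the members' median was 0.16. The shares of 16.3% and 47.6% are not on that scale and give no background for the 22. Changes below are on the deposited scale, on which the median tested gene had shifted by -0.22.

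RpS19b, a paralogue of RpS19a known from the gonads, rose most. It read 7.87, 8.41 and 8.62 on Su(var)3-9 arrays A, B and C, against 6.21 (lowest), 6.47 (median) and 6.73 (highest) in wildtype. The change was 1.82 ± 0.17 (limma adjusted p = 3.37e-07), or 3.53-fold. RpL22-like, a testis paralogue of RpL22, read 7.85, 8.31 and 8.43 against 7.14 to 7.43 (median 7.27), a change of 0.91 ± 0.15. RpL37-2 read 7.39, 7.69 and 7.97 against 6.69 to 6.97 (median 6.77), a change of 0.90 ± 0.12 (adjusted p = 6.41e-06). In all 3 genes every mutant array lay above every wildtype array, and array A was the lowest of the mutant arrays. Centring the arrays left the 3 genes called, at 2.04, 1.14 and 1.12. Separation of the arrays was part of the choice of named genes, and its share over all tested genes is not given here.

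**Figure D2:**
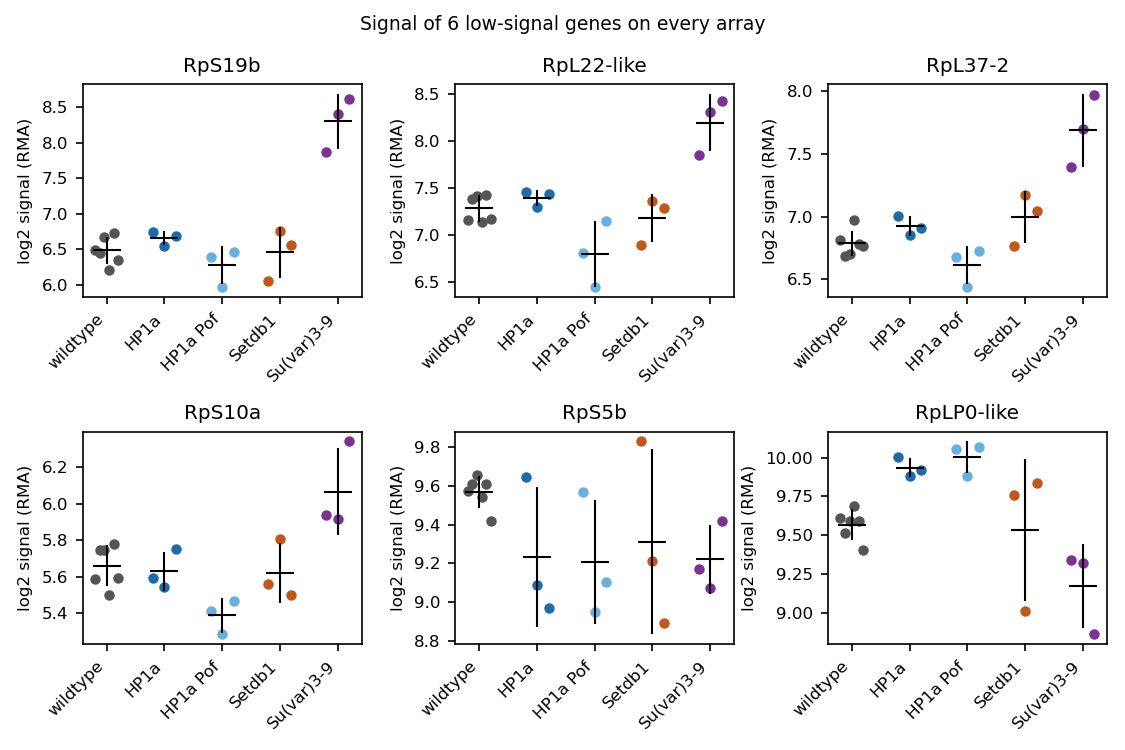
Log2 RMA signal (y axis, a scale of its own for each gene) of RpS19b, RpL22-like, RpL37-2, RpS10a, RpS5b and RpLP0-like by genotype (x axis). Points are arrays, horizontal lines group means and vertical lines SDs (n = 6 in wildtype, n = 3 elsewhere). RpS19b, RpL22-like and RpL37-2 are higher on all 3 Su(var)3-9 arrays, and RpS5b is spread widely in the mutant groups.

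The untested paralogue RpS10a read 5.94, 5.92 and 6.34 on these arrays and 5.50 to 5.78 (median 5.67) in wildtype, without overlap. RpL10Aa read 4.20, 5.03 and 4.87 against 4.21 to 4.56, with overlap. RpS28a (5.57, 5.62 and 5.88) lay within or below its wildtype range of 5.66 to 5.97. RpS5b, a paralogue of RpS5a known from the ovary, did not pass the reported test in any genotype, with changes of -0.33 ± 0.18 in HP1a, -0.36 in the double, -0.26 in Setdb1 and -0.35 in Su(var)3-9 mutants. In the first 3 of these groups array A was the highest. RpS5b read 9.65, 9.09 and 8.97 in HP1a, 9.57, 8.95 and 9.10 in the double and 9.83, 9.21 and 8.89 in Setdb1 mutants, against 9.42 to 9.66 (median 9.59) in wildtype. Without array A, RpS5b fell by 0.54 in HP1a (adjusted p = 0.0268), by 0.54 in the double (0.0306) and by 0.52 in Setdb1 mutants (0.024). Array weights also gave a called fall, of -0.49 in HP1a (0.00972), -0.37 in the double (0.0232) and -0.49 in Su(var)3-9 mutants (0.00255).

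Some testis genes also read higher on the Su(var)3-9 arrays, but these missed the filter and were not tested. Of 6 testis markers, nht read 5.10, 5.84 and 5.79 on arrays A, B and C (4.44 to 4.63 in wildtype), sa 5.11, 5.84 and 5.76 (4.96 to 5.05), can 4.12, 4.62 and 4.59 (3.75 to 4.09) and aly 4.22, 4.34 and 4.59 (3.94 to 4.10). The marker mia, the only tested gene of the 6, was lower, at 6.92 to 7.01 against 7.70 to 7.89. Its change was -0.83 (limma adjusted p = 6.93e-06). The untested comr overlapped (5.05 to 5.26 against 4.66 to 5.08). Their mean over the 6 was 5.09 to 5.50, against 4.97 to 5.10 in wildtype. The mean of the 5 measured germline markers was 4.72 to 4.97 against 4.65 to 4.98, with the defining marker vas at 4.31 to 4.34 and 4.17 to 4.33. The mean of the 4 measured fat body markers was 10.60 on array C and 7.37 to 7.51 on the other 17 arrays. The part of these tissues in the paralogues' rise was not tested. With array A as the only Su(var)3-9 array, the rises were still called, at 1.39 in RpS19b, 0.57 in RpL22-like (adjusted p = 0.0436) and 0.61 in RpL37-2, the lone array being assumed to vary like the other groups.

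The bright members that fell in Su(var)3-9 mutants belonged to both subunits. RpS29 read 13.83, 13.82 and 13.86 (-0.29 ± 0.05, adjusted p = 8.96e-05, a loss of signal of 18.2%). RpS30, made as a fusion with a ubiquitin-like protein, read 13.35, 13.28 and 13.31 against 13.51 to 13.59 (median 13.54), with -0.23 ± 0.05 (adjusted p = 0.000583). RpL40, made as a fusion with ubiquitin, read 13.61, 13.56 and 13.55 against 13.78 to 13.82 (median 13.79), with -0.22 ± 0.05 (adjusted p = 0.000879). RpL37-1 fell by 0.21, RpS7 by 0.20, RpL29 by 0.17 and RpL27 by 0.13, and RpS27A, the third ubiquitin fusion, changed by -0.04 without passing the test. In each of the 7 fallen bright members the mutant arrays lay below every wildtype array. The share of all tested genes with such separation is not given here. A second, dim probe set of RpS7 (mean 5.81) went the other way, with 0.92 in Su(var)3-9 mutants and 0.64, 0.71 and 0.51 in HP1a, double and Setdb1 mutants. That of RpS30 (mean 8.71) changed by -0.44 in Su(var)3-9 and by 0.31 in Setdb1 mutants.

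The 2 dim members that fell were RpLP0-like and RpL34a. RpLP0-like read 9.34, 9.32 and 8.86 (-0.39 ± 0.15, adjusted p = 0.028), the opposite direction to its rise in HP1a mutants. RpL34a read 12.24, 12.07 and 12.02 against 12.41 to 12.47 (median 12.45), with -0.33 ± 0.06 (adjusted p = 0.000185). Without Su(var)3-9 array C the change was -0.24 (adjusted p = 0.206) in RpLP0-like and -0.09 (0.185) in RpL27. RpLP0-like was also uncalled without wildtype array D (-0.37), and RpL27 without Su(var)3-9 array B (-0.13) or any single wildtype array (-0.14 to -0.12). With the replicate letter as a block, RpL27 (-0.15, adjusted p = 0.101) and RpLP0-like (-0.40, adjusted p = 0.0687) were not called. Both were also uncalled with wildtype arrays A to C and no block (limma adjusted p of 0.0919 and 0.0811). With array A alone, 3 members fell, namely RpS29 (-0.29), RpS30 (-0.20) and RpL40 (-0.18). With the arrays centred, none of the 9 falls was called, the values for RpS29, RpS30, RpL34a and RpLP0-like being -0.07, -0.01, -0.11 and -0.17, and those for RpL40, RpL37-1 and RpL27 turning to 0.00, 0.01 and 0.09.

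**Figure D3:**
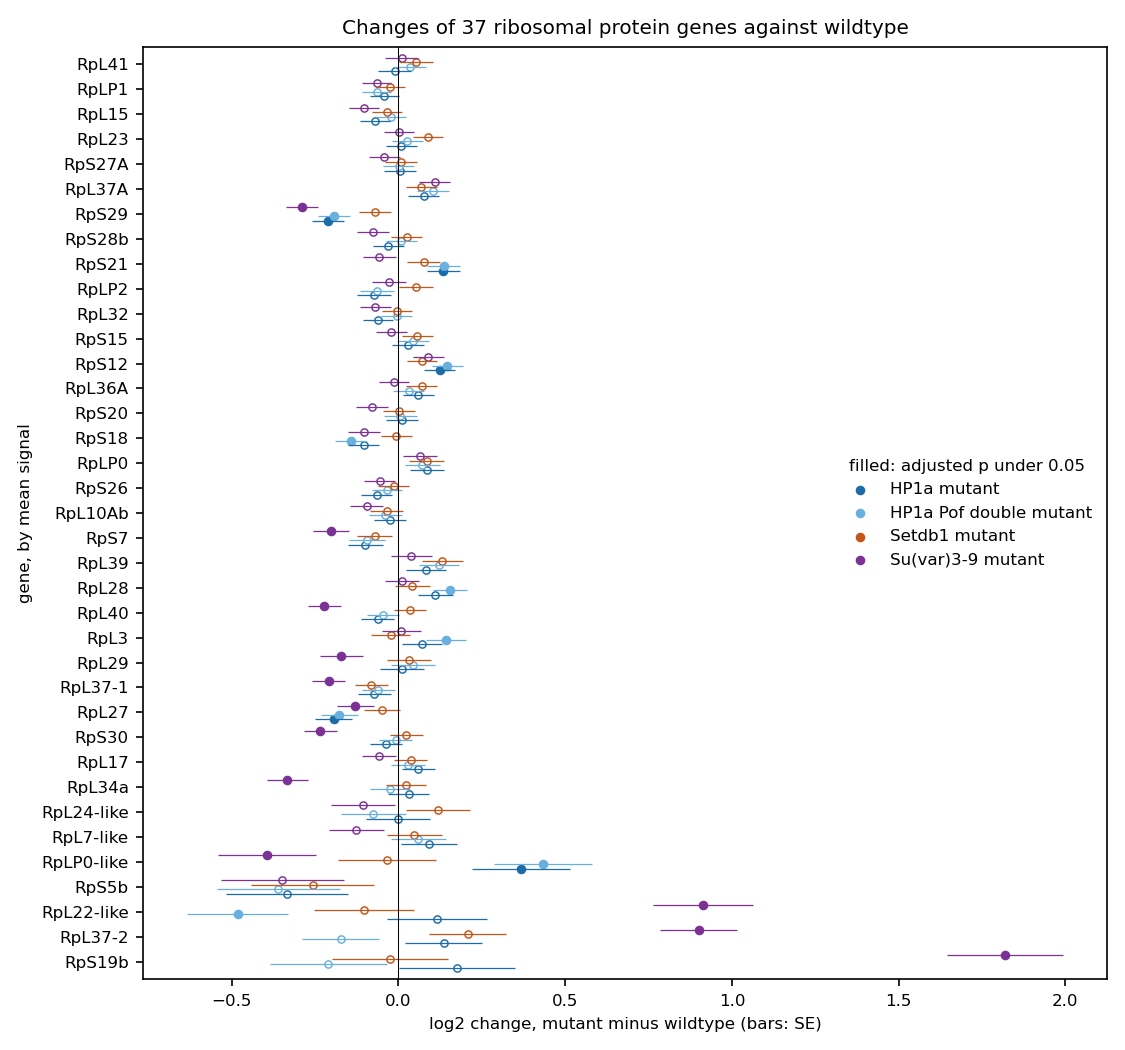
Log2 change against wildtype with its SE (x axis) for the 37 tested ribosomal protein genes (y axis, by mean signal) in the 4 mutant genotypes. Filled points have a limma adjusted p under 0.05 on the deposited scale. Most bright members lie within 0.2 of 0, RpS29 and RpL27 fall in 3 genotypes but are not called once arrays are centred, and the rises of RpS19b, RpL22-like and RpL37-2 in Su(var)3-9 mutants are the largest changes.

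The 2 methyltransferase mutants were also set against each other. Setdb1 minus Su(var)3-9 gave 4 members higher and 3 lower, with 19% of tested genes higher and 8.48% lower. The medians were 0.08 for the members and 0.12 for all genes. The lower genes were RpS19b (-1.84 ± 0.20), RpL22-like (-1.02 ± 0.17) and RpL37-2 (-0.69 ± 0.13), and the higher ones RpL34a (0.36 ± 0.07), RpS30 (0.26 ± 0.06), RpL40 (0.26 ± 0.06) and RpS29 (0.22 ± 0.06), with limma adjusted p from 7.66e-06 to 0.00911. On the Setdb1 arrays RpS19b read 6.05, 6.76 and 6.55, around the wildtype range of 6.21 to 6.73. RpL34a read 12.43, 12.52 and 12.45 and RpS29 14.11, 14.04 and 14.02 in Setdb1 mutants. Centring gave 1 member higher and 3 lower, and the members' median was -0.03. With Su(var)3-9 array A alone, 0 were higher and 1, RpS19b (-1.42), lower.

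RpL15, the member in the pericentromeric part of 3L (27267255 to 27268445 in Release 6), did not pass the test in any comparison on the deposited scale with the reported settings. It read 14.13 to 14.16 in wildtype, 14.05 to 14.09 in HP1a, 14.10 to 14.14 in the double, 14.07 to 14.14 in Setdb1 and 14.02 to 14.05 in Su(var)3-9 mutants. Its changes against wildtype were -0.07, -0.02, -0.03 and -0.10, each with an SE of 0.05, and all turned positive with the arrays centred (0.00 to 0.12). In Su(var)3-9 mutants it was called lower when the filter was raised to 8 (limma adjusted p = 0.0332), and by the mean of probe sets (0.0496), array weights (0.00976) and a trended robust variance (0.00238). The last of these also called it lower in HP1a mutants (0.0289). No chromosome 4 member was tested.

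Ribosome assembly takes place in the nucleolus, where rRNA is transcribed, modified and bound by ribosomal proteins. Of 42 tested genes for ribosome assembly and rRNA synthesis, 29 rose and 3 fell in HP1a mutants (median 0.67), 31 and 3 in the double mutants (0.72), 13 and 1 in Setdb1 mutants (0.25) and 2 and 10 in Su(var)3-9 mutants (-0.02). Over all tested genes the shares higher and lower were 23.5% and 35.6%, 25% and 35.8%, 17.3% and 35.2%, and 16.3% and 47.6%. The mbm gene, for a nucleolar protein of small-subunit assembly, rose by 1.50 ± 0.15, 1.52, 1.02 and 0.63 in that order of genotypes. Nop60B, the pseudouridine synthase of rRNA, changed by 1.12 ± 0.21, 1.29, 0.20 and -0.06, the last 2 not called. Nnp-1, a nucleolar protein gene, changed by 1.26, 1.26, 0.60 and 0.32, the last not called. After centring, the Su(var)3-9 counts for this list turned to 14 higher and 4 lower, while the HP1a counts were 35 and 2.

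Markers of other tissues moved in the same larvae. Of 4 tested neuron markers, 2 were called higher in HP1a and 3 in double mutants, among them elav (0.83 and 1.19) and VGlut (1.06 and 1.42). VGlut, with a wildtype mean of 4.78, was also called higher in Setdb1 (0.93) and Su(var)3-9 mutants (0.97). There elav was not called (0.09 and -0.13), and ChAT was called lower in Su(var)3-9 mutants (-1.01). The mean of the 4 neuron markers was 7.58 to 7.79 on wildtype, 8.14 to 8.30 on HP1a and 8.33 to 8.62 on double-mutant arrays. Of 4 tested gut markers, betaTry and Mal-A1 were higher by 1.62 to 1.71 in both HP1a genotypes, while alphaTry and epsilonTry were lower. The gut mean was 11.77 to 11.93 in wildtype, 11.98 to 12.26 in HP1a and 11.94 to 12.29 in double mutants. Of 4 tested haemocyte markers, 1 was called higher and 3 lower in HP1a mutants, and 0 higher and 2 lower in the double. Their mean was 8.26 to 8.48 in wildtype, 7.97 to 8.14 in HP1a and 7.73 to 7.90 in double mutants. The part of these tissues in the rise of the assembly genes was not tested.

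Mitochondrial ribosomal protein genes differed from the cytoplasmic set in their counts. Of 69 tested, 26 rose and 2 fell in HP1a mutants, 25 and 3 in the double mutants, 34 and 0 in Setdb1 mutants and 8 and 32 in Su(var)3-9 mutants (medians 0.12, 0.11, 0.18 and -0.15). Over all tested genes 23.5% rose and 35.6% fell in HP1a, 25% and 35.8% in the double and 17.3% and 35.2% in Setdb1 mutants. In Su(var)3-9 mutants 47.6% of all tested genes were lower and their median change was -0.22, so the 32 falls stood near the background. Centring gave 42 higher and 2 lower in HP1a, 39 and 2 in the double, 56 and 0 in Setdb1 and 20 and 8 in Su(var)3-9 mutants. Between Setdb1 and Su(var)3-9 mutants, 48 were higher and 0 lower, where 19% of all tested genes were higher and 8.48% lower. With the arrays centred, 35 were higher and 2 lower. In that list mRpS31 rose by 0.69, 0.77, 0.37 and 0.50, and mRpS6 by 0.67, 0.61 and 0.66, with 0.02 (not called) in Su(var)3-9 mutants. The difference between the lists was not tested.

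**Figure D4:**
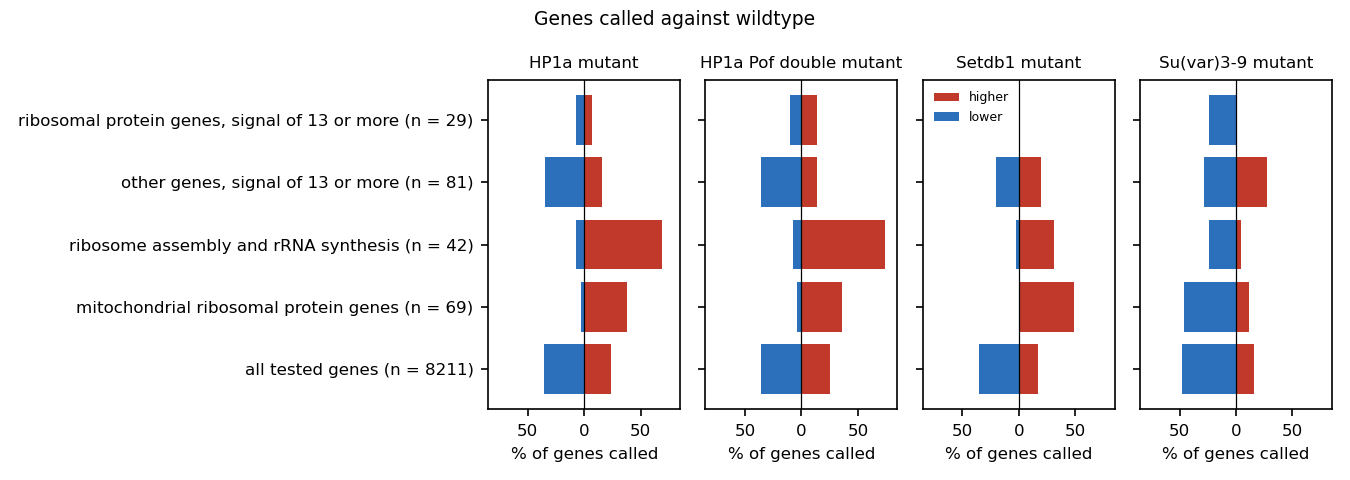
Share of genes called higher (red, to the right) or lower (blue, to the left) than wildtype on the deposited scale, in percent (x axis), for 5 sets of genes (y axis) in each of the 4 mutant genotypes. No bright ribosomal protein gene is called in Setdb1 mutants, and ribosome assembly genes are mostly called higher in both HP1a genotypes. In Su(var)3-9 mutants, centring the arrays turns the counts of ribosomal protein and assembly genes towards higher.

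Translation factors act with the finished ribosome at each step of protein synthesis. Shares over all tested genes are those given above beside the assembly genes, with 16.3% higher and 47.6% lower in Su(var)3-9 mutants. Of 33 tested initiation factors, 14 rose and 4 fell in HP1a mutants, 15 and 2 in the double, 5 and 5 in Setdb1 and 4 and 10 in Su(var)3-9 mutants. The largest change was in eIF4E3, a cap-binding factor needed for sperm formation in Drosophila. It rose by 2.07 ± 0.27 in Su(var)3-9 mutants (limma adjusted p = 8.53e-06) and by 0.74 in the double mutants (0.0265). In the double mutants the dim paralogues RpS19b and RpL37-2 were not called and RpL22-like was called lower. NAT1 fell by 0.71 in Su(var)3-9 and by 0.45 in Setdb1 mutants, and eIF4EHP, a cap-binding repressor, fell by 0.68 in Setdb1 and by 0.44 in HP1a mutants. Of 6 elongation and release factors, 4, 5, 2 and 0 rose in HP1a, double, Setdb1 and Su(var)3-9 mutants, and 1 fell, in the last. The elongation factor gene eEF1alpha2 rose by 0.54, 0.71 and 0.68 in the first 3 genotypes, while eEF1delta rose by 0.47 and 0.48 in the 2 HP1a genotypes.

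Of 18 tested regulators of ribosome production, 4 rose and 3 fell in HP1a mutants, 5 and 4 in the double, 1 and 9 in Setdb1 and 1 and 11 in Su(var)3-9 mutants. Among all tested genes, 35.6%, 35.8%, 35.2% and 47.6% fell in these genotypes, and 23.5%, 25%, 17.3% and 16.3% rose. Maf1, the repressor of RNA polymerase III, fell in all 4 genotypes, by 1.10, 0.98, 0.62 and 0.83 with SEs of 0.10. Mnt, the antagonist of Myc, fell by 1.20 ± 0.14 in Su(var)3-9 and by 0.49 in Setdb1 mutants. The growth repressor brat rose by 1.06 ± 0.29 in both HP1a genotypes. With the arrays centred, the Su(var)3-9 counts were 13 higher and 6 lower for initiation factors and 3 higher and 5 lower for these regulators.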

How the data were processed

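The deposited values are log2 signals, made with RMA per the submitters' processing notes. The sources used here give neither its settings nor a genome build. Per the labels' protocols, RNA of 200 larvae per replicate was extracted with TRIzol and RNeasy and labelled with biotin. Of 18952 probe sets, 13647 named 1 gene in the platform annotation, 402 several and 4720 none, 183 were controls, and 13544 matched the reference table. They stood for 11982 genes, 1094 of them with several probe sets. Names were updated and positions taken from Release 6.

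One linear model of the 5 groups (13 residual degrees of freedom) was fitted in limma 3.58.1 under R 4.3.3, with moderated variances and Benjamini-Hochberg adjustment over 8211 genes. The submitters call the replicates biological without saying whether they came from separate crosses, so p-values measure the spread between these pools. The number of arrays limits the precision. The procedure was tested on simulated data of 8211 genes. It recovered 40% to 64% of changes of 0.5 and 90% to 96% of changes of 1, but 2% to 8% of changes of 0.2, with 4 to 9 false calls. Far fewer genes were changed there than were called against wildtype here, and they were drawn from all tested genes. These rates thus do not describe the bright members, whose SDs were smaller.

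The replicate letters were checked for pairing. Residuals of same-letter arrays correlated above 0.1 for every letter in HP1a (lowest 0.334), Setdb1 (0.27) and Su(var)3-9 mutants (0.105) against wildtype and in double against HP1a mutants (0.423). Arrays of different letters were not compared in this way, and the labels do not say that a letter marks a batch. The reported fit therefore held no block, and the letters entered only an alternative fit. The lowest values were 0.0784 for double mutants against wildtype and -0.00898 for Setdb1 against Su(var)3-9 mutants. Blocked comparisons left out wildtype arrays D to F.

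The members and lists were chosen with earlier results of these data known. Members were named if pericentromeric, if among up to 6 largest rises or falls whose arrays did not overlap, or if a paralogue, with up to 3 genes from each related list having the largest called changes. Non-overlap was thus part of the choice, and its share over all tested genes is not given here. It adds nothing to the calls. RpL39, RpL41, RpS27A, RpS7 and RpL29 were named after their values were seen. Lists that held fewer genes after matching were 39 initiation factors (33 tested), 11 elongation and release factors (6), 54 assembly genes (42) and 23 regulators (18).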

Additional observations from a re-analysis of the deposited data

Results flagged for a closer look

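The difference between Setdb1 and Su(var)3-9 mutants, each set against the same wildtype arrays, passed the limma test at an adjusted p under 0.05 in 7 of the 37 members. The log2 differences, Setdb1 minus Su(var)3-9, were -1.84434 in RpS19b, -1.01618 in RpL22-like and -0.692789 in RpL37-2. They were 0.355884 in RpL34a, 0.258116 in RpS30, 0.257486 in RpL40 and 0.219546 in RpS29. In all 7 genes the 3 arrays of one mutant lay on one side of the 3 arrays of the other, without the share over all tested genes being given here. With the arrays centred on their medians, RpS30, RpL40 and RpS29 were no longer called. With Su(var)3-9 array A alone, RpS19b kept its direction. Among the Su(var)3-9 arrays, A was nearest to wildtype in the testis markers nht, sa, can, aly and comr, none of which passed the filter. It was farthest in the testis marker mia (6.92, with 7.01 on B and 6.99 on C). The part of tissue content in these differences was not tested. None of the 37 members had a wildtype array far outside the other 5 by Dixon's criterion, for which chance gives about 1 group in 20.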

How the results depend on the processing

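Centring each array on its median tested gene moved most counts, and the shares of all tested genes on that scale are not given here. It gave 8 members higher and 0 lower in HP1a (median 0.0779), 8 and 1 in double (0.0764), 12 higher in Setdb1 mutants (0.135), and for Su(var)3-9 it gave 22 and 0 (0.158). For Setdb1 minus Su(var)3-9 it gave 1 higher and a median of -0.0299. Centring also reversed RpL15 in the 4 comparisons with wildtype (0.000517, 0.0585, 0.0776 and 0.12) and in Setdb1 minus Su(var)3-9 (-0.0424), RpL27 (0.0941), RpL37-1 (0.014) and RpL40 (0.00122) in Su(var)3-9 mutants, and RpS5b in Setdb1 minus Su(var)3-9 (-0.0219). The mean of probe sets gave 5 higher and 1 lower in HP1a, 3 higher in Setdb1 mutants and 6 higher in Su(var)3-9. Array weights gave 5 lower in HP1a mutants, 5 higher and 18 lower in Su(var)3-9, and 1 lower with RpS5b turned to 0.126 for double minus HP1a. A trended robust variance gave 5 and 5 in HP1a, 4 higher in Setdb1 mutants, 5 and 16 for Su(var)3-9, and 10 higher for their difference. Without the filter, which also brings the 4 genes that missed it into the fit, 1 gene was lower in Setdb1 mutants. A filter at log2 8 gave 1 higher in Su(var)3-9 mutants and 0 lower for Setdb1 minus Su(var)3-9. Wildtype A to C alone gave 0 higher in HP1a and in double mutants. The replicate block also gave 0 higher in each, for double mutants without evidence of pairing, and its other counts were within 1.5 times of those reported. Su(var)3-9 array A alone, chosen after seeing the data, gave 3 lower against wildtype, and 0 higher and 1 lower for Setdb1 minus Su(var)3-9. Leaving out 1 array gave 0 to 3 higher in HP1a, 1 to 4 higher and 1 to 5 lower in double, 0 to 1 higher and 0 to 1 lower in Setdb1 mutants. For RpS5b it gave -0.208 to 0.18 for double minus HP1a and -0.17 to 0.301 for Setdb1 minus Su(var)3-9. The causes of these moves were not tested. Over the alternatives other than leaving out 1 array at a time, 107 counts and medians moved by less than 1.5 times or the spread between arrays, and 37 moved by more.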
